A study of Homo sapiens with 4 samples.

Results

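The nuclear-encoded subunit genes of oxidative phosphorylation were followed in single cells of MM134, the short name of MDA MB 134VI. It is an established line of lobular breast carcinoma that expresses the estrogen receptor. Members were the rows with plain gene symbols in the deposited expression matrix whose symbol began with NDUFA, NDUFB, NDUFC, NDUFS or NDUFV and a digit, with COX4 to COX8, with ATP5 or with UQCR. Of 33538 such rows, 88 matched, and 76 of these reached the minimum of 50 UMIs summed over all cells: 37 genes of complex I, 9 of complex III, 11 of complex IV and 19 of complex V. A UMI is a molecular barcode that lets each captured transcript be counted once. The rule for single rows used symbols and summed counts. Some rows were ambiguous: UQCRHL is a near-identical copy of UQCRH, so reads could be split between them, NDUFB2 has an antisense neighbour, and nothing used here states whether counting used the strand. COX7A2L, ATP5IF1 and ATP5S matched the rule but encode a supercomplex factor, an inhibitor and a coupling factor, and NDUFA4 is now placed in complex IV.

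Unmodified (WT) cells were deprived of hormone in charcoal-stripped serum and then received 0.01% ethanol as vehicle or 100 nM estradiol for 24 h, with 1 mRNA library per treatment. The vehicle library held 4940 cells and 6918198 UMIs in the plain-symbol rows, with a median of 1199 UMIs per cell, and the estradiol library held 3367 cells and 5937422 UMIs, with a median of 1561. Luminal markers (KRT8, KRT18, KRT19, EPCAM, ESR1, GATA3, FOXA1, XBP1) were present in both libraries and CDH1, the adhesion gene often lost in lobular cancer, was at 10.1 and 10.3 CPM (UMIs scaled to a common library total), vehicle first. Of the other cell types' markers, the basal genes KRT5, KRT14, KRT17, TP63 and ACTA2 had no UMI, and OXTR and MYLK were at 5.06 and 1.16 CPM with vehicle and 6.06 and 1.01 with estradiol. Of the mesenchymal genes, COL1A2, COL3A1 and PDGFRB had no UMI, whereas VIM was at 158 and 119 CPM, FN1 at 34.3 and 31.2 CPM and COL1A1 at 26.02 and 21.1 CPM. The immune, endothelial and adipocyte genes had no UMI apart from 1 for CD68 and 1 for VWF. The authors' cell-cycle calls put 50.5% of vehicle and 34.5% of estradiol cells in G1, 15.6% and 29.0% in S, and 33.9% and 36.4% in G2M. The median mitochondrial percent per cell was 7.66 and 7.62. The libraries shared 4 cell barcodes. The cells of 1 library are not replicates, so no difference could be tested. Every interval is an exact 95% interval that covers counting error only, not the spread between cultures.

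Oxidative phosphorylation couples the oxidation of NADH and succinate to ATP synthesis in the inner mitochondrial membrane. Complex I passes electrons from NADH to ubiquinone, complex III from ubiquinol to cytochrome c, and complex IV from cytochrome c to oxygen, while complex V makes ATP from the proton gradient. Most subunits are encoded in the nucleus and imported, and a small set is encoded by mitochondrial DNA, so each complex except complex II is assembled from both genomes. The nuclear genes are commonly expressed as a group, with NRF1, ETS-family GABP and YY1 known as factors that bind near their starts.

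Promoter windows of RefSeq (GRCh38.p14, 250 bases before the gene's start) could be matched for 63 of the 76 members. Both strands were searched. The NRF1-type motif, GCGCA and GCGC with any base between them, was found in 12 members, or 19.05%, against 6.20% of all 27305 windows and 8.72% of those of coding genes. The ETS-type motif CCGGAAG was found in 16 members, or 25.4%, against 10.2% and 13.98%, and the YY1-type motif ATGGCGGC in 3 members, or 4.76%, against 1.59% and 1.86%. The palindromic estrogen response element, GGTCA and TGACC with 3 bases between them, was in none of the 63 and in 0.0513% of all windows, and the estrogen-related receptor element TCAAGGTCA in none and in 0.388%. UQCR11 held both an NRF1-type and an ETS-type match, and NDUFS1 both an ETS-type and a YY1-type match. The windows below belong to members that were at least 25% higher, or 20% lower, in the estradiol library than in the vehicle library, written 5′ to 3′ on the gene's strand with the match in capitals. UQCRC1 (chr3:48609647-48609896, minus strand) has an NRF1-type match 47 bases before the start, NDUFA11 (chr19:5903791-5904040, minus strand) has one 98 bases before it, and NDUFA13 (chr19:19515975-19516224, plus strand) has an ETS-type match 10 bases before it. The other 3 higher members, NDUFB2 (chr7:140696458-140696707, plus strand), NDUFS6 and NDUFB10, have no match in their windows, and neither has NDUFB3 (chr2:201071751-201072000, plus strand), the lower member with a window. NDUFB2 and NDUFB3 are shown as windows with no match.
UQCRC1: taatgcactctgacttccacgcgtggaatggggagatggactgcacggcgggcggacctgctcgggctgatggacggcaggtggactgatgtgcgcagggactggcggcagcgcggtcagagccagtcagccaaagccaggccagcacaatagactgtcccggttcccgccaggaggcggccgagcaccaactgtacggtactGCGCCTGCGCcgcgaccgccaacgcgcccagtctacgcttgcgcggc
NDUFA11: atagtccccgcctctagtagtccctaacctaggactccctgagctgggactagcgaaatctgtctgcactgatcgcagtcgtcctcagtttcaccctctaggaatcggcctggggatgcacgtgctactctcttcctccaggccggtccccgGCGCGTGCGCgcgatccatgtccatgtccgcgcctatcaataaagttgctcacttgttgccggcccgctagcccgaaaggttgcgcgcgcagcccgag
NDUFA13: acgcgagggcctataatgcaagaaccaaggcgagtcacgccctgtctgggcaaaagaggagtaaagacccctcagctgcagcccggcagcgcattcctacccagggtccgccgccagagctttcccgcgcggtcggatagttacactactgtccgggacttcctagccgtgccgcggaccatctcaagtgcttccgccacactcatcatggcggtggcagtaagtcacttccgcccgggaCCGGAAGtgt
NDUFB2: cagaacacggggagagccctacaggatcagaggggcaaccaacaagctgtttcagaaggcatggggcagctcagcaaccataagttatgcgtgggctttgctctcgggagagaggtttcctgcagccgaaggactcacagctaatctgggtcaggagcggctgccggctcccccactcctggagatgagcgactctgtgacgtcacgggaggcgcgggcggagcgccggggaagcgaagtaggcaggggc
NDUFB3: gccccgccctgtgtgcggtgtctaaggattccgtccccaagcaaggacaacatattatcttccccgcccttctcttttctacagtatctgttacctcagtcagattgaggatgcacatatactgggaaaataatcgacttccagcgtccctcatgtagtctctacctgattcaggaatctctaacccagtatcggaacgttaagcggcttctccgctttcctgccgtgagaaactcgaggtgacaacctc
The median log2 ratio of estradiol to vehicle was 0.04 over the members with an NRF1-type match and 0.05 over those without, and 0.13 with and 0.03 without an ETS-type match. A match describes letters in a window, not a bound site.

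Between treatments the subunit genes as a group differed little. They made up 2.19% of UMIs in the vehicle library (151498 UMIs, 2.18 to 2.201%) and 2.28% in the estradiol library (135363 UMIs, 2.27 to 2.29%), a log2 ratio of 0.06 (0.05 to 0.07) or 1.04-fold. The median member had a log2 ratio of 0.05, beside -0.03 over all 10977 genes with at least 50 UMIs and 0.01 over the 2772 genes of similar UMI number (775.5 to 8337 UMIs, the range from the 5th to the 95th percentile of the members). In all, 47 members had a ratio above 1 and 29 below 1, and the number above 1 ran from 44 to 54 under the other scalings and weightings tried.

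Few members differed by a set fold. A gene was counted as past it when its level was at least 25% higher, or by the same fold at least 20% lower, with estradiol than with vehicle. The count was 6 members higher (7.89%), against 13.7% of all genes and 12.7% of those of similar UMI number. It was 3 members lower (3.95%), against 18.2% and 9.74%. Either way this was 11.8% of members, against 31.9% of all genes and 22.4% of genes of similar UMI number. At 1.5-fold there were 0 members in either direction, against 3.82% of all genes higher and 6.67% lower. The counting interval lay above 1 for 25 members (32.9%, against 16.2% of all genes and 29.6% of genes of similar UMI number), below 1 for 11 (14.5%, against 18.4% and 24.3%) and included 1 for 40. The standard deviation of the log2 ratios across members was 0.18, beside 0.29 for genes of similar UMI number. The ratios of the subunit genes were thus packed closer to each other than those of the genes within this range of UMIs. That set includes members and was not matched to them in UMI number, and the difference was not tested. Giving the 3 phases equal weight left 1 member past the fold downwards instead of 3. The only member past it with under 200 UMIs was UQCRHL, with 68.

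**Figure D1:**
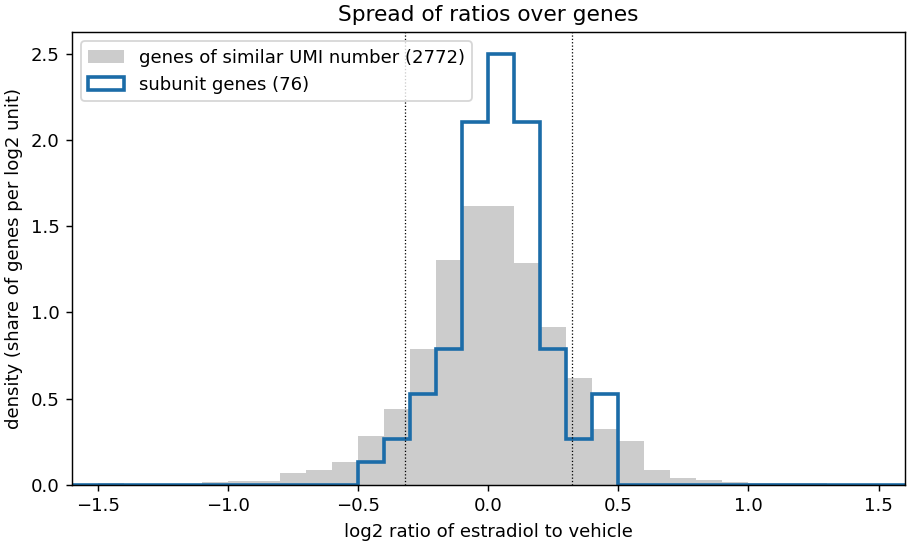
Density of log2 ratios of estradiol to vehicle (x axis) over the 76 subunit genes (blue line) and over 2772 genes of similar UMI number (grey bars); dotted lines mark the set fold, 25% higher and 20% lower. The subunit genes form a narrower peak, with a standard deviation of 0.18 against 0.29.

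By complex, the summed share of complex I went from 0.876% to 0.934% of UMIs, a log2 ratio of 0.09 (0.08 to 0.11), with 22 members above 1 and 15 below. Complex IV went from 0.367% to 0.382% (log2 ratio 0.06, 0.03 to 0.08; 7 above, 4 below). Complex V went from 0.622% to 0.633% (0.02, 0.0049 to 0.04; 12 above, 7 below), and complex III from 0.325% to 0.331% (0.03, -0.0013 to 0.05; 6 above, 3 below). A median-of-ratios size factor moved each of these log2 ratios up, to 0.13 for complex I, 0.093 for complex IV, 0.059 for complex V and 0.061 for complex III. A sum gives most weight to abundant genes, and the medians over members stood in another order. The median log2 ratio was 0.07 for complex III, 0.05 for complexes I and V and 0.02 for complex IV. Of the members past the set fold, 7 of 9 were in complex I (18.9% of its 37 members) and the others in complex III (22.2% of its 9). Either way, 31.9% of all genes and 22.4% of genes of similar UMI number were past it. Complexes IV and V had no member past this fold.

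**Figure D2:**
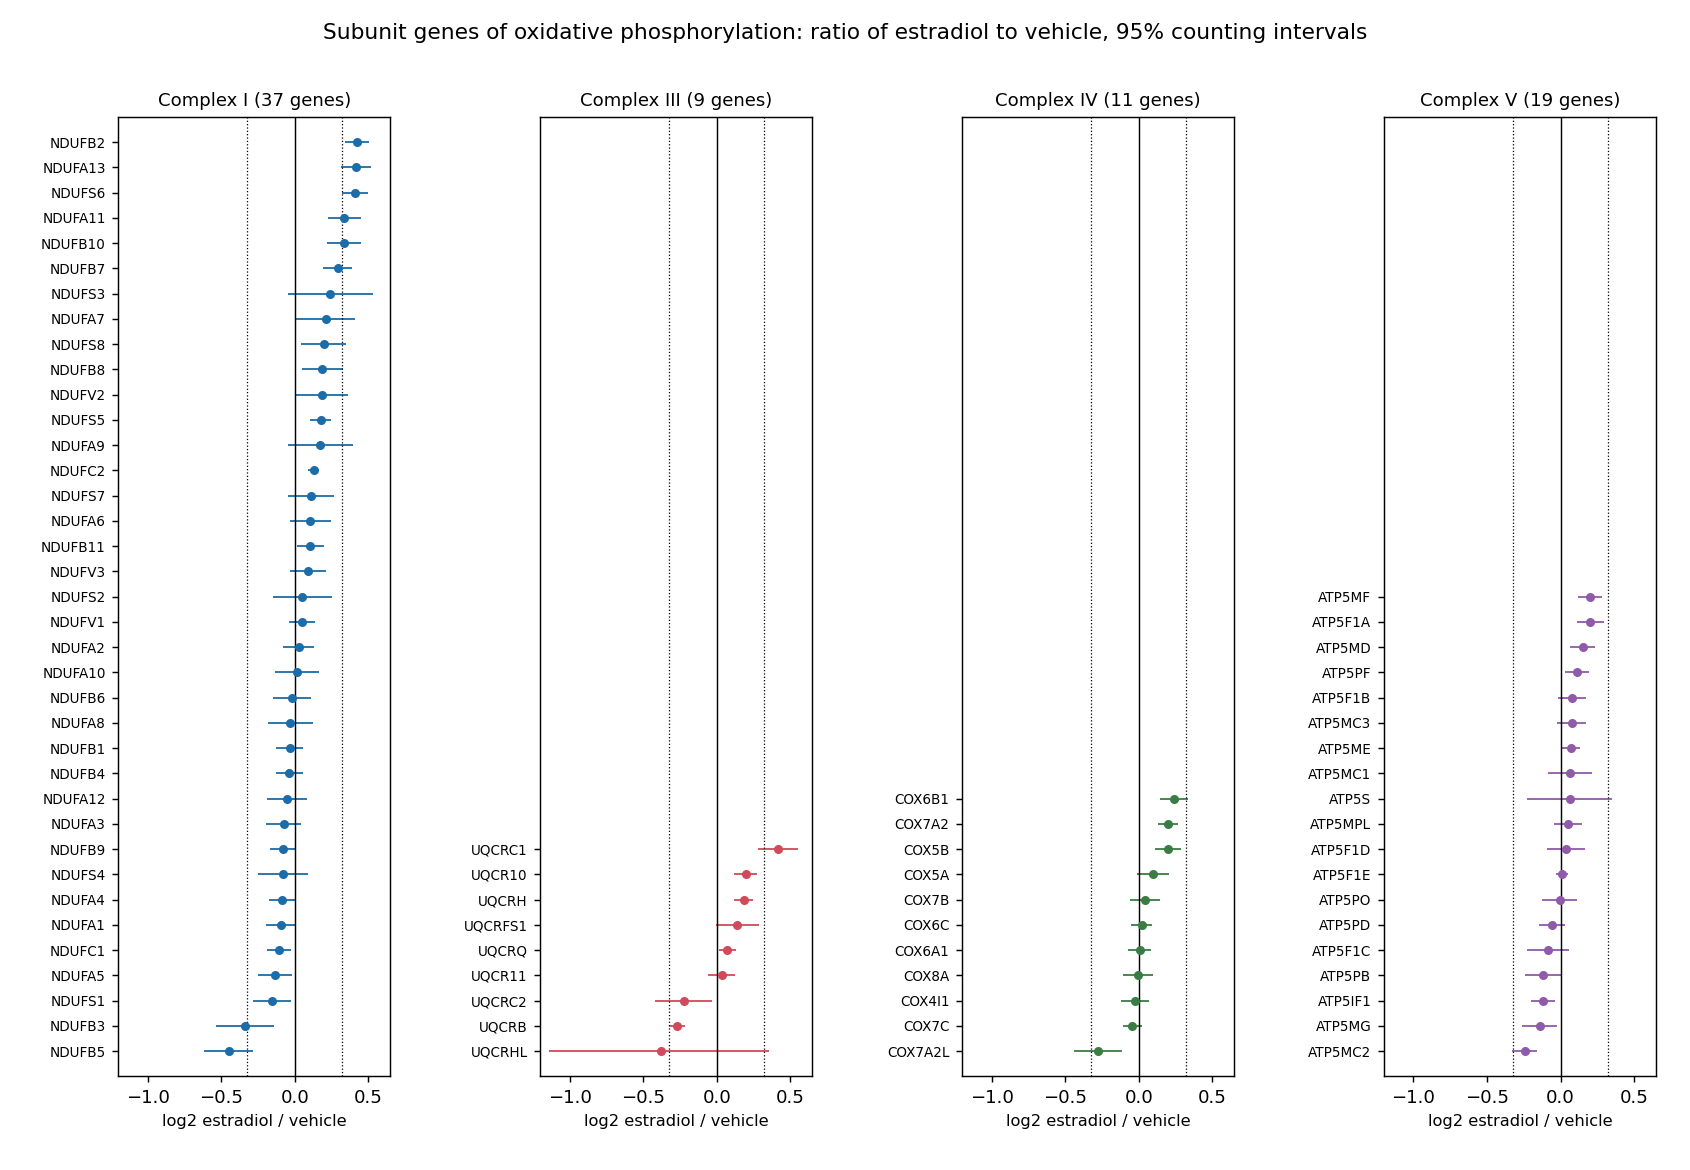
Log2 ratio of estradiol to vehicle for each of the 76 subunit genes, by complex, with 95% counting intervals; the solid line marks equal levels and the dotted lines the set fold. The points past the dotted lines are 7 of 37 genes of complex I and 2 of 9 of complex III, against 31.9% of all genes.

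In complex I the core subunits, which carry the flavin and the iron-sulfur clusters or form the ubiquinone site, differed little. Their sum went from 845 to 879 CPM (log2 ratio 0.06, 0.0032 to 0.11), and the single log2 ratios ran from -0.15 to 0.24 over 7 genes. NDUFV1, the NADH-binding subunit, was at 309 CPM with vehicle and 320 with estradiol, and the interval of its ratio included 1 (log2 0.05, -0.04 to 0.14). NDUFS1, the largest iron-sulfur subunit, went from 166 to 149 CPM (log2 -0.15, -0.28 to -0.03).

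The accessory subunits of complex I held its widest differences. NDUFB2, a small subunit of the membrane arm, went from 329 CPM (316 to 343) to 440 CPM (424 to 458), a log2 ratio of 0.42 (0.34 to 0.50). NDUFA13, also known as GRIM-19, went from 215 to 286 CPM (log2 0.41, 0.31 to 0.52). NDUFS6, which binds zinc in the peripheral arm, went from 275 to 365 CPM (0.41, 0.32 to 0.50). All 3 had levels in the estradiol library outside the counting interval of the vehicle library. NDUFA11 (183 to 231 CPM, log2 0.34) and NDUFB10 (167 to 211 CPM, log2 0.33) were just past the set fold, and NDUFB7, at 245 and 299 CPM (log2 0.29), was the nearest member below it.

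Subunits of the same membrane arm were found at both ends. NDUFB5 (chr3:179604794-179627647) went from 113 CPM (106 to 122) to 83.0 CPM (75.9 to 90.7), 1.36-fold lower (1.22 to 1.53), the lowest ratio of any member. NDUFB3 went from 78.3 to 62.0 CPM, 1.26-fold lower (1.11 to 1.45). The 11 NDUFB genes thus spanned 0.87 log2 units, from -0.45 to 0.42, with 5 above 1 and 6 below, while their sum went from 2459 to 2625 CPM (log2 0.09, 0.06 to 0.13). The sum over the NDUFB genes and their median (-0.02) thus differed in sign. NDUFC2, a membrane-arm subunit (chr11:78068297-78079862) and the member with most UMIs, went from 1842 CPM (1810 to 1874) to 2013 CPM (1977 to 2050), a log2 ratio of 0.13. It gave 8.61% of all member UMIs, a share of UMIs that was not corrected for length; a read-through row with KCTD14 overlaps it and held 5 UMIs. NDUFS5, the next in UMIs, went from 472 to 533 CPM (log2 0.18).

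In complex III the large core proteins UQCRC1 and UQCRC2, which are related in sequence and stand in the matrix part, differed in opposite directions. UQCRC1 went from 116 CPM (108 to 125) to 155 CPM (145 to 165), 1.33-fold higher (1.21 to 1.47). UQCRC2 went from 74.2 to 63.5 CPM, 1.17-fold lower (1.02 to 1.34). Both intervals excluded 1, and the subunits are present in equal number in the complex. Among the small subunits, UQCRB, a ubiquinone-binding protein, went from 938 to 779 CPM, 1.20-fold lower (1.16 to 1.251). UQCR10 went from 395 to 453 CPM and UQCRH, the hinge protein, from 574 to 652 CPM, log2 ratios of 0.20 and 0.18. UQCRQ (740 and 778 CPM) and UQCR11 (294 and 300 CPM) had log2 ratios of 0.07 and 0.03. The small subunits summed to 2946 and 2966 CPM, a log2 ratio of 0.01 (-0.02 to 0.04). UQCRHL was at 5.93 and 4.55 CPM, with an interval from -1.14 to 0.35 that says little about its direction.

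In complex IV the genes of the ubiquitous isoforms were expressed and those known for other tissues were at or near 0. COX4I1 was at 286 and 281 CPM, and its lung-type isoform COX4I2 had 0 UMIs. COX6A1 was at 405 and 407 CPM, and the muscle isoform COX6A2 had 0 UMIs. COX7A2 was at 495 and 568 CPM (log2 0.20, 0.13 to 0.27), and the muscle isoform COX7A1 had 1 UMI in both libraries together. COX6B1, which lies on the cytochrome c side, was at 272 and 321 CPM (log2 0.24, 0.15 to 0.33), and the testis isoform COX6B2 had 10 UMIs. COX8C had 2 UMIs, COX7B2 had 0 and NDUFA4L2, a paralog of NDUFA4, had 3. A count of 0 allows up to 3 UMIs, or 0.434 CPM in the vehicle and 0.505 CPM in the estradiol library. The other rows under the minimum were NDUFB2-AS1 with 42 UMIs, ATP5MGL with 24, NDUFV2-AS1 with 7, NDUFC2-KCTD14 with 5 and ATP5MF-PTCD1 with 0.

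The remaining named members of complex IV stayed within the set fold, with intervals that excluded 1 for COX5B and COX7A2L. COX5B, a zinc-binding subunit, went from 297 to 340 CPM (log2 0.20, 0.11 to 0.29), COX5A from 210 to 225 CPM (0.10, -0.01 to 0.21) and COX7C from 621 to 602 CPM (-0.04, -0.11 to 0.02). COX7A2L, which helps join complexes III and IV into supercomplexes, went from 107 to 88.1 CPM, 1.21-fold lower (1.08 to 1.36). It was the lowest ratio among the 11 rows counted here with complex IV.

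In complex V the catalytic head differed little. ATP5F1A, the alpha subunit, went from 289 to 332 CPM (log2 0.20, 0.11 to 0.29). ATP5F1E, the epsilon subunit, was at 1362 CPM (1334 to 1390) and 1372 CPM (1342 to 1402), a log2 ratio of 0.01. The 5 genes of the head and central stalk summed to 2215 and 2280 CPM (log2 0.04, 0.0085 to 0.08), and the 4 genes of the peripheral stalk to 1048 and 1050 CPM (log2 0.0024, -0.05 to 0.05).

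Subunit c, the proton-carrying ring, is encoded by a set of genes that give the same mature protein, so their transcripts were also summed. ATP5MC2 went from 374 to 316 CPM, 1.18-fold lower (1.12 to 1.26), while ATP5MC1 (114 and 119 CPM) and ATP5MC3 (262 and 276 CPM) had log2 ratios of 0.07 and 0.07 with intervals that included 1. The 3 genes summed to 750 and 711 CPM, a log2 ratio of -0.08 (-0.14 to -0.02). Among the other membrane subunits, ATP5MF (355 to 409 CPM, log2 0.20), ATP5MD (342 to 380 CPM, 0.15) and ATP5ME (599 to 628 CPM, 0.07) were above 1, and ATP5MG (194 to 175 CPM, -0.14) was below. ATP5IF1, which inhibits the enzyme when it runs in reverse, went from 412 to 379 CPM (log2 -0.12, -0.20 to -0.04).

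The difference between treatments in the summed share was seen within each cell-cycle phase. The summed share was 2.23% with vehicle and 2.36% with estradiol in G1 cells (log2 0.08, 0.06 to 0.10). It was 2.18% and 2.28% in S (0.06, 0.04 to 0.09), and 2.15% and 2.22% in G2M (0.04, 0.03 to 0.06). By complex, only complex I had a ratio whose interval lay above 1 in all 3 phases. In G2M the log2 ratio was -0.0024 (-0.03 to 0.03) for complex V and 0.03 (-0.0085 to 0.07) for complex IV. For complex III it was 0.03 (-0.02 to 0.07) in G1 and 0.0064 (-0.06 to 0.07) in S. In G1, 8 of 75 members with at least 50 UMIs were past the set fold upwards, against 17.8% of all genes, and 2 downwards, against 19.3%. In S the counts were 7 higher, against 15.8%, and 0 lower, against 15.9%. In G2M they were 5 higher, against 13.1%, and 1 lower, against 19.7%. In all 3 phases 30 members were above 1 and 15 below 1, a count that was not made over all genes. Whether the difference itself changed with phase could not be tested.

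The 8 genes past the set fold with at least 200 UMIs kept their direction over phases with 1 exception. They were picked by their ratio over all cells, and the phases divide those same cells, so agreement in direction is partly built in. The same check was not made over other genes. NDUFB2 was at 322, 358 and 326 CPM in G1, S and G2M with vehicle, and at 457, 469 and 408 CPM with estradiol. UQCRC1 was at 96.2, 131 and 132 CPM with vehicle and at 136, 161 and 166 CPM with estradiol. NDUFB5 was at 124, 96.0 and 109 CPM with vehicle and at 83.0, 76.8 and 87.4 CPM with estradiol. For each of these genes every estradiol value lay on the same side of the vehicle value of that phase. NDUFB3 was the exception: its log2 ratio was -0.63 (-1.001 to -0.26) in G1 and -0.38 in G2M, but 0.04 (-0.39 to 0.49) in S.

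**Figure D3:**
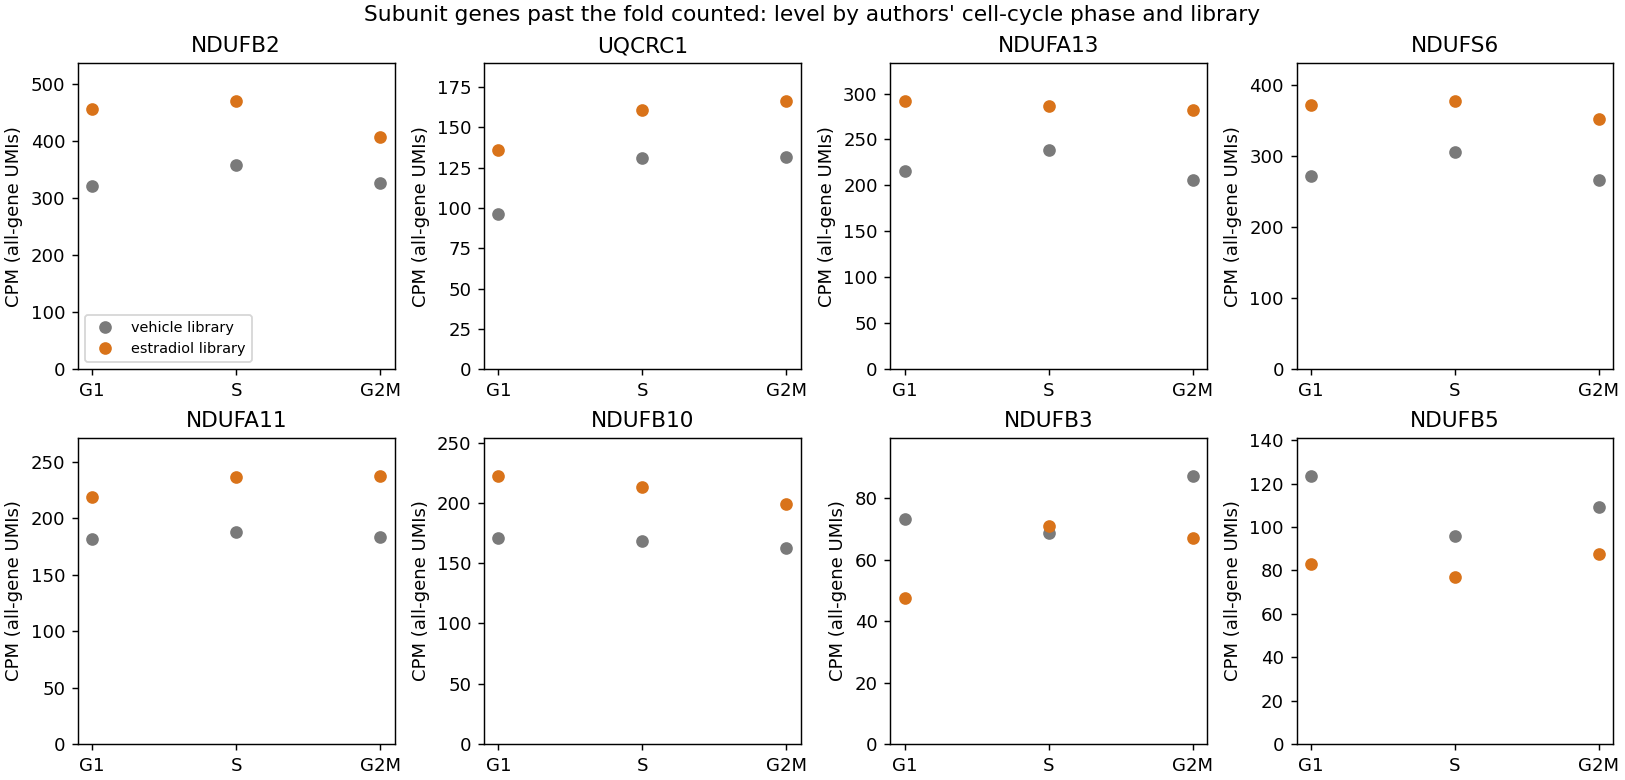
Level (CPM, axis from 0) of the 8 genes past the set fold with at least 200 UMIs in each cell-cycle phase, vehicle library in grey and estradiol library in orange; 1 value per library and phase, so no error bars are drawn. The levels differ in the same direction in all 3 phases for every gene except NDUFB3, which is about equal in S. The genes were picked by their ratio over these same cells.

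Between phases of 1 library the members as a group also differed little. Against G1, the log2 ratio of the summed share was -0.03 (-0.05 to -0.01) in S and -0.05 (-0.06 to -0.03) in G2M with vehicle, and -0.05 (-0.07 to -0.03) and -0.09 (-0.10 to -0.07) with estradiol. Past the set fold in S there were 4 higher and 4 lower of 75 members with vehicle, against 20.5% and 20.6% of all genes, and 2 higher and 4 lower with estradiol, against 19.2% and 16.9%. In G2M there were 2 higher and 4 lower with vehicle, against 20.1% and 19.7%, and 3 higher and 3 lower with estradiol, against 18.3% and 19.3%. From G1 to G2M, 40 members were lower in both libraries and 15 higher in both. The same count was not made over all genes, whose median log2 ratio was -0.004 with vehicle and -0.02 with estradiol.

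A few members stood out between phases in both libraries. NDUFV1 was higher in G2M than in G1, at 346 against 262 CPM with vehicle (log2 0.40, 0.27 to 0.54) and 362 against 273 CPM with estradiol (0.41, 0.25 to 0.57). COX7C was lower, at 545 against 694 CPM (-0.35, -0.44 to -0.25) and 524 against 696 CPM (-0.41, -0.52 to -0.30). In S, NDUFA6 was higher than in G1 (log2 0.36 with vehicle and 0.39 with estradiol) and ATP5MC2 was lower (-0.40 and -0.34). UQCRC1 had the highest log2 ratio of S to G1 with vehicle, 0.44 (0.14 to 0.74), but 0.24 (-0.01 to 0.50) with estradiol. UQCRB was lower than in G1 in both later phases, with log2 ratios from -0.34 to -0.30. NDUFA7 and NDUFA9 were the other members with the lowest ratios of G2M to G1 over both libraries, and COX5A and NDUFB3 among those with the highest ratios of S or G2M to G1. Depth moved with phase: the median cell had 978 UMIs in G1 and 1536.5 in G2M with vehicle, and 1309 and 1810 with estradiol.

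Depth also moved with the summed share itself. The share was highest in the shallowest quartile of cells and lowest in the deepest. From shallow to deep it was 2.39, 2.27, 2.17 and 2.06% with vehicle, and 2.54, 2.41, 2.31 and 2.19% with estradiol (quartile limits of 972.5, 1352 and 1901.5 UMIs over both libraries). Within every quartile the estradiol value was higher, with a log2 ratio of 0.09 in each. Weighting the quartiles equally gave 0.09 instead of 0.06. The deepest quartile held 947 vehicle and 1130 estradiol cells, and the shallowest 1663 and 414. Between the deepest and the shallowest quartile the median member had a log2 ratio of -0.16 with vehicle and -0.20 with estradiol, beside 0.05 and 0.04 over all genes. In both libraries 56 of 76 members were lower, a count that was not made over all genes. The part of cell size, capture and content in this was not tested. NDUFB2, UQCRC1, NDUFA13, NDUFS6, NDUFA11, NDUFB10, NDUFB3 and NDUFB5 kept their direction in all 4 quartiles. The quartiles divide the cells in which these genes were picked, so this too is partly built in.

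**Figure D4:**
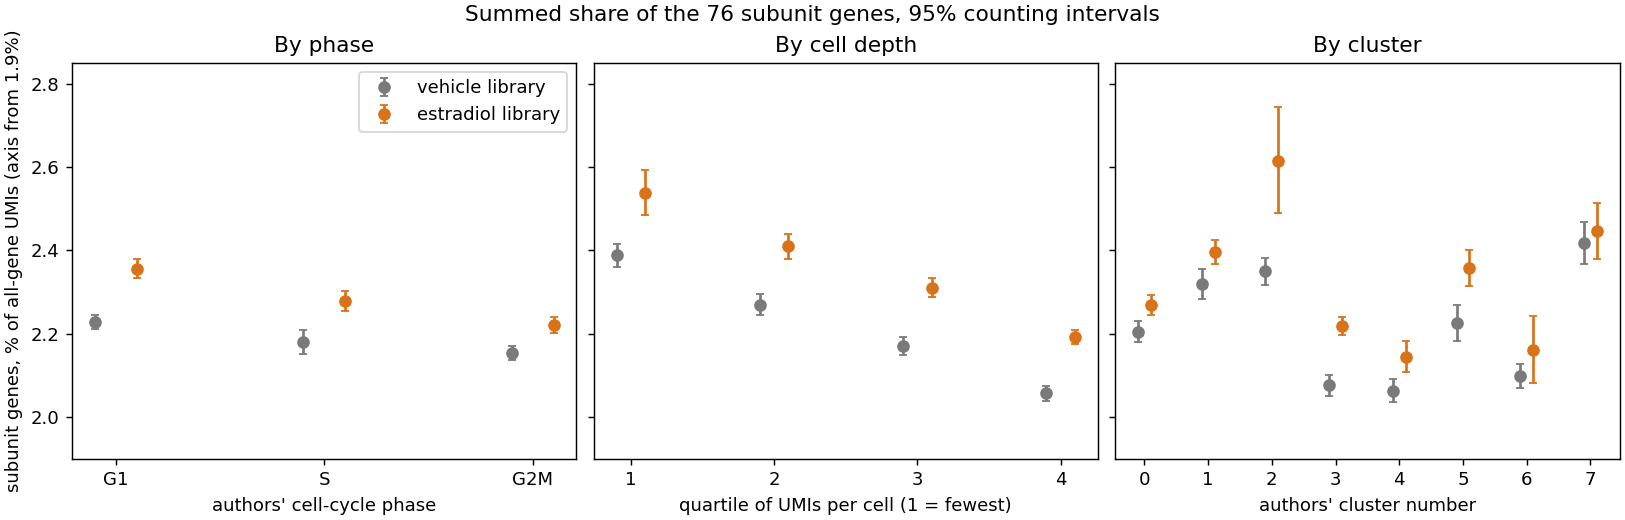
Summed share of the 76 subunit genes (percent of UMIs, axis from 1.9%) by phase, by quartile of UMIs per cell and by the authors' cluster, vehicle in grey and estradiol in orange, with 95% counting intervals. The estradiol point is higher in every stratum, and the share is lower in each deeper quartile in both libraries.

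How the authors' 8 clusters were called is not stated, and the calling may have used these genes. Over these clusters the share ran from 2.06% in cluster 4 to 2.42% in cluster 7 with vehicle. With estradiol it ran from 2.14% in cluster 4 to 2.61% in cluster 2, which held only 82 estradiol cells. It was higher with estradiol in 8 of 8 clusters, with log2 ratios from 0.02 to 0.15, and the interval excluded 1 in all but clusters 6 and 7. Cluster 4 consisted of G2M cells only, and cluster 2, with a median of 748 UMIs per vehicle cell, mostly of G1 cells. Across the 16 groups of cluster and library, the shares of the complexes moved together, with Pearson's r from 0.69 (complexes I and IV) to 0.89 (complexes III and V). The summed share had r = -0.70 with median depth and r = 0.59 with the median mitochondrial percent. These points share 2 libraries and their depths, so the values are descriptive.

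Some single members differed more between clusters than the sum. The 3 with the widest ratio are given first, a choice that also favours counting error. NDUFB3 had 58 UMIs in cluster 7, and UQCRC1 had 81 in cluster 2. UQCRC1 ran from 86.1 CPM in cluster 2 to 160 CPM in cluster 0, a ratio of 1.86, over both libraries. NDUFB3 ran from 54.5 CPM in cluster 3 to 101 CPM in cluster 7, also 1.86, and NDUFS7, a core subunit next to the ubiquinone site, from 70.6 CPM in cluster 6 to 120 CPM in cluster 0, a ratio of 1.70. COX4I1 had the smallest ratio, 1.15, between 265 CPM in cluster 3 and 304 CPM in cluster 0. Clusters differ in their mix of libraries, so these ratios also hold the treatment difference. Between treatments, NDUFB2, UQCRC1 and NDUFA13 were higher with estradiol in 8 of 8 clusters, NDUFB3 and NDUFB5 lower in 7, NDUFS6 and NDUFA11 higher in 6 and NDUFB10 higher in 5. These genes were picked by their ratio over the same cells, so agreement between clusters is not separate support.

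Per cell, the members gave a median of 27 UMIs with vehicle and 36 with estradiol, and a median share of 2.21% and 2.28%. After the variance of random sampling was taken off, the cell-to-cell coefficient of variation of the share was 14.4% with vehicle and 12.7% with estradiol. The same value was 23.4% and 20.9% for the mitochondrially encoded subunits, and 22.03% and 19.04% for cytosolic ribosomal proteins. It was 10.5% and 13.1% for the mitochondrial ribosome. The nuclear subunit genes thus varied less between cells than their mitochondrially encoded partners in these libraries.

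The mitochondrially encoded subunits summed to 7.74% of UMIs with vehicle and 7.67% with estradiol, a log2 ratio of -0.01, and their median log2 ratio was 0.02 over 13 genes. None was past the set fold, against 13.7% of all genes higher and 18.2% lower, though MT-CO1 was just short of it. MT-CO1, the catalytic subunit of complex IV, went from 11103 to 8952 CPM, 1.24-fold lower (log2 -0.31), while MT-CYB, the cytochrome of complex III, went from 3766 to 4468 CPM (log2 0.25) and MT-ND6 from 296 to 348 CPM (log2 0.24). Transcripts of 1 mitochondrial genome thus differed in both directions.

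Complex II has no mitochondrially encoded subunit and was outside the symbol rule. In the plain-symbol rows all 4 of its genes had a ratio below 1, with a median log2 ratio of -0.21, and 1 was past the set fold downwards, against 18.2% of all genes. SDHB, its iron-sulfur subunit, went from 61.6 to 50.02 CPM (log2 -0.30, -0.52 to -0.08) and SDHD from 12.9 to 9.77 CPM (-0.40, -0.90 to 0.10). The same genes were also read in the targeted panel rows of these libraries, which hold far more UMIs for them. There SDHA had a log2 ratio of 0.04 (-0.01 to 0.09), SDHB -0.05 (-0.10 to -0.0031), SDHC -0.12 (-0.16 to -0.08) and SDHD -0.30 (-0.43 to -0.18), beside a median of -0.11 over 940 panel genes. The lower value was thus repeated in the panel for SDHD, while SDHC was close to the panel median and SDHB and SDHA lay above it. No member was among the 1253 panel rows.

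Of the electron carriers, CYCS, cytochrome c, went from 93.1 to 118 CPM (log2 0.35, 0.19 to 0.50) and CYC1, the cytochrome of complex III, from 107 to 118 CPM (0.13, -0.02 to 0.28). ETFA was lower at 22.7 and 17.5 CPM (-0.37, -0.75 to -0.0070). NDUFAB1, the acyl carrier that complex I shares with fatty acid synthesis, went from 141 to 159 CPM (log2 0.17, 0.04 to 0.30).

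Some assembly factors had larger ratios than any subunit. For complex I, 3 of 14 factors (21.4%) were past the set fold upwards and 0 downwards, against 13.7% and 18.2% of all genes, with a median log2 ratio of 0.12. NDUFAF8 went from 88.5 to 141 CPM, 1.59-fold higher (log2 0.67, 0.52 to 0.82). For complex III, 2 of 6 were higher and 1 lower (median 0.10), and UQCC2 went from 94.8 to 153 CPM, 1.62-fold higher (log2 0.69, 0.55 to 0.84), with UQCC3 from 108 to 140 CPM (0.38). TTC19 was lower, at 32.2 and 24.6 CPM (-0.39). For complex IV, 3 of 23 were higher (13.04%, near the share of all genes) and 2 lower (8.70%; median 0.05), among them TACO1, which activates translation of MT-CO1, at 20.1 and 28.0 CPM (0.48) and COX11 at 27.6 and 20.9 CPM (-0.40). For complex V the median over 3 factors was -0.08.

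Other mitochondrial lists differed from the subunit genes in their medians. The mitochondrial ribosome had a median log2 ratio of 0.14 over 77 genes, with 14 higher (18.2%) and 4 lower (5.19%) past the set fold, against 13.7% and 18.2% of all genes, and MRPL12 went from 39.0 to 70.1 CPM (log2 0.84, 0.62 to 1.07). Import genes had a median of 0.25 over 21 genes, with 7 higher (33.3%, against the same 13.7%) and 0 lower, and HSPD1, the matrix chaperonin, went from 666 to 1006 CPM (0.60, 0.54 to 0.65). The tricarboxylic acid cycle had a median of 0.03 over 14 genes, with 1 lower (SUCLG2, 49.7 to 36.0 CPM), and carriers and porins -0.15 over 7. Cytosolic ribosomal proteins had a median of 0.0045 over 79 genes. Under a median-of-ratios size factor, which moves the median of all genes from -0.03 to 0.00, the median of the subunit genes moved from 0.05 to 0.08. No set test was made, so these medians describe the lists only.

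**Figure D5:**
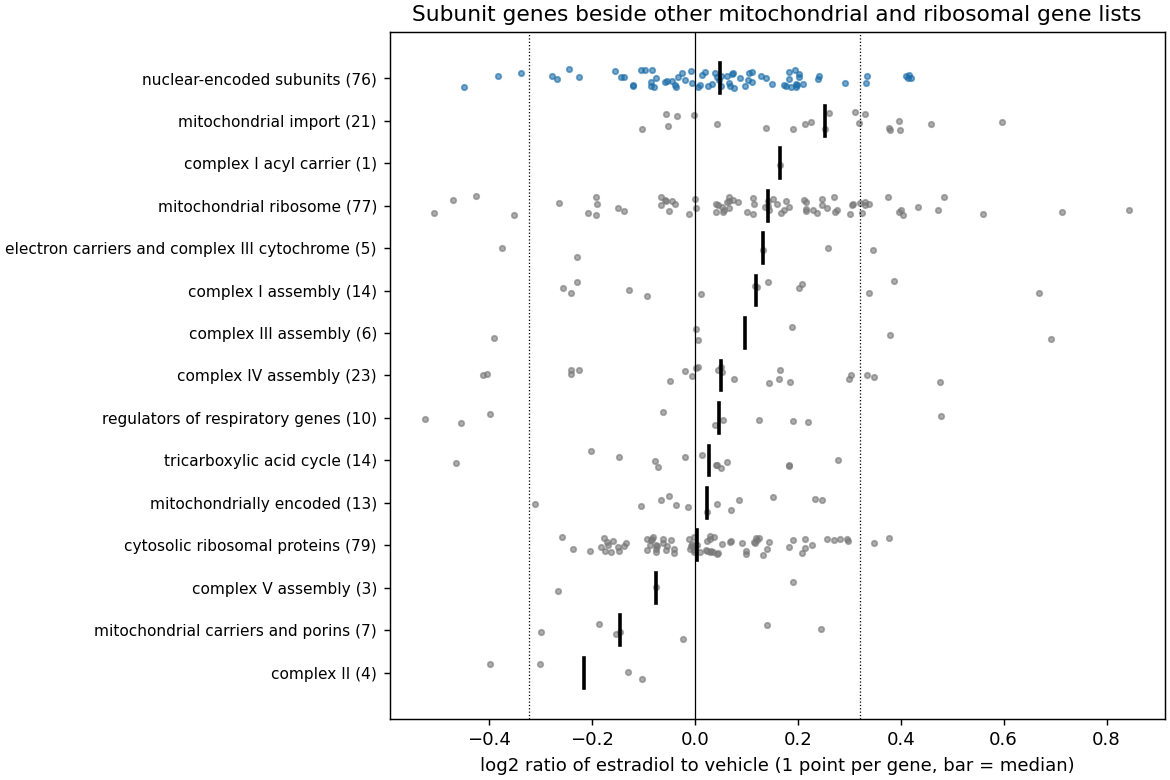
Log2 ratio of estradiol to vehicle for every measured gene of the 14 other lists (grey) and of the 76 subunit genes (blue); 1 point per gene, bars are medians, numbers of genes in parentheses, dotted lines mark the set fold. The subunit median of 0.05 lies between that of the import genes (0.25) and that of complex II (-0.21).

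Of 10 genes of known regulators with at least 50 UMIs in the plain-symbol rows, 1 was past the set fold upwards and 3 downwards, against 13.7% and 18.2% of all genes. The largest ratio was that of ESRRA, an estrogen-related receptor, at 8.96 and 6.23 CPM (log2 -0.52, -1.15 to 0.09). TFB1M, which modifies mitochondrial ribosomal RNA, was at 12.0 and 8.76 CPM (-0.45, -0.98 to 0.06), and the intervals of both included 1. NRF1 was at 6.50 and 6.23 CPM (log2 -0.06, -0.73 to 0.60) and GABPA, a subunit of GABP, at 24.9 and 18.9 CPM (-0.40, -0.75 to -0.05). TFAM, which packages mitochondrial DNA, was at 98.4 and 101 CPM (0.04, -0.12 to 0.20) and YY1 at 248 and 270 CPM (0.12, 0.03 to 0.22). PPRC1, a coactivator of the same family as PPARGC1A and the only 1 of the 10 past the fold upwards, went from 20.7 to 28.8 CPM (0.48, 0.15 to 0.81). PPARGC1A itself, a coactivator of mitochondrial genes, had 29 and 6 UMIs there, under the minimum. In the panel rows it went from 62.6 to 17.9 panel CPM, 3.51-fold lower (2.99 to 4.13). That is a log2 ratio of -1.81, beside a median of -0.11 over 940 panel genes. The subunit genes had a summed ratio of 1.04-fold in the plain-symbol rows, which are scaled to another total. A link between these values was not tested.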

How the data were processed

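The deposited matrix holds natural log values per gene and cell, which equal ln(1 + 10000 × UMI count / cell total). The authors also deposited counts of UMIs per cell, the mitochondrial percent, and the treatment, cluster and cell-cycle phase of each cell. No source used here states how clusters and phases were called. Per the submitters' processing notes, the tools include UMI-tools 0.5.3, SAMtools, Bowtie2 2.3.2, cutadapt 1.8.3 and Cell Ranger 3.0.2, and the build is hg38; their roles are not stated. The labels call the mRNA libraries targeted, and no source used here states how the plain-symbol rows were sequenced.

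Counts were recovered from the natural log values. All values above 0 (100%) were whole to within 1e-06, and in 100% of cells their sum equalled the deposited cell total. UMIs were summed per library, phase, cluster or depth quartile and divided by the total of the plain-symbol rows (CPM, or percent). Ratios have exact 95% conditional Clopper-Pearson intervals, and shares and CPM have exact Poisson intervals. The ratio code was tested on simulated data. With 1 library per treatment no p-value was computed, and a set fold (25% higher, or 20% lower) was used to count genes. Every deposited cell was kept. Doublets were not called; dropping the 5% of cells with most UMIs was an alternative. The DNA repair libraries were not used. Python 3.11.15, NumPy 2.4.6, pandas 2.3.3 and SciPy 1.17.1 were used.

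Named members are, per complex, the 3 highest and 3 lowest ratios with at least 200 UMIs and the 2 with most UMIs, the 3 highest and 3 lowest between phases, and the 3 widest between clusters; from each other list up to 3 genes by size of ratio. Isoforms, regulators, the subunit c genes and other names beyond this rule were chosen after their values were seen, as was the grouping by role. The members and lists were chosen with earlier results of these data known. Promoter windows come from RefSeq, GRCh38.p14.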

Additional observations from a re-analysis of the deposited data

How the results depend on the processing

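Among the results recomputed under the alternatives, no summed share, list median or named member past the set fold changed direction. Of the other named members, 5 near 1 did: COX4I1, NDUFV1, COX7C, UQCR11 and ATP5F1E, with log2 values from -0.044 to 0.048 at first. Sums and medians outside that set and this close to 1, such as the cytosolic ribosomal median (log2 0.0045), could also change sign with the total used. The summed share of all members (log2 0.058, estradiol against vehicle) became 0.092 with a median-of-ratios size factor, 0.045 without the 10 most abundant genes in the total, 0.070 over cells with at least 800 UMIs and 0.089 with equal weight to depth quartiles, an alternative added after seeing the data. The size factor gave 0.13, 0.061, 0.093 and 0.059 for complexes I, III, IV and V and 0.058 for the mitochondrially encoded median. Equal depth weight gave 0.12, 0.098 and 0.061 for complexes I, IV and V, with 0.059 for ATP5F1E, 0.18 for NDUFC2 and -0.21 for UQCRB. Equal weight to phases left 1 member lower past the set fold instead of 3, with NDUFB3 at -0.31. Without the 10 most abundant genes, G1 gave 0.060, S 0.040 and G2M against G1 with vehicle -0.079. Over cells with at least 800 UMIs, G1 gave 0.10 and G2M against G1 with vehicle -0.026. A total without ribosomal protein and mitochondrially encoded genes gave -0.071 and -0.11 for S and G2M against G1 with vehicle, -0.082 and -0.13 with estradiol, and 0.29 and 0.39 for the log2 ratio of the highest to the lowest cluster share, vehicle first. The cause of these shifts was not tested. No paired analysis was possible because each treatment has 1 library.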

Other observations

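Members lie on 22 chromosomes, and the 10 on chromosome 19 had a median log2 ratio of estradiol to vehicle of 0.17, with 9 of 10 above 1, beside 0.03 over the members on other chromosomes. NDUFA13, NDUFA11, NDUFB7 and COX6B1 are on it. The 163 genes of chromosome 19 within the members' UMI range had a median of 0.13, and all 801 of its genes with at least 50 UMIs had 0.04, beside -0.04 over 10176 genes elsewhere. The pattern was seen in the data and was not tested.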
